A study of Homo sapiens with 4 samples.

Results

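The CCAAT/enhancer binding protein (C/EBP) genes were examined in progestin-treated breast cancer cells. The members were the 6 gene symbols *CEBPA*, *CEBPB*, *CEBPD*, *CEBPG*, *CEBPE* and *CEBPZ*, taken by name from the 23287 gene symbols of the transcript files, and all 6 were found. The family was chosen by its values in these same files, the difference in FPKM between the conditions and the PR binding sites near its genes, so these values are given as a description with no test. The cells were T47D, a human breast cancer line that expresses the progesterone receptor (PR). One RNA-seq library came from cells given 10 nM R5020, a synthetic progestin, for 3 h, and another from cells given ethanol (EtOH), the vehicle, for 3 h. Before RNA isolation the cells of both libraries were kept in medium with charcoal-stripped serum, which is low in steroids. The third library was a PR ChIP-seq of cells given 10 nM R5020 for 1 h. As each condition had 1 library, no spread between cultures could be estimated, no p-value is given, and every difference below is between these libraries.

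C/EBP proteins are transcription factors of the basic leucine zipper (bZIP) class, which bind DNA as homodimers or as heterodimers with each other and with other bZIP proteins. C/EBPα and C/EBPβ are best known from the differentiation of fat, liver and myeloid cells, and C/EBPβ is required for the normal development of the ducts and secretory alveoli of the mammary gland. C/EBPδ is a rapidly inducible member, studied in the acute-phase response and in growth arrest of mammary epithelial cells. C/EBPγ lacks an activation domain of its own and acts mainly as a dimer partner, and C/EBPε is a factor of granulocyte maturation. *CEBPZ* shares the name but not the bZIP domain, and encodes a CCAAT-binding protein that is also a ribosome biogenesis factor.

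Expression was taken as the FPKM, the number of fragments scaled to transcript length and library size, summed over the transcripts of a gene. This scaling is meant to make FPKM values comparable between genes as well as between libraries. For the 3 single-exon members the FPKM lay above its own deposited interval. Their levels relative to other genes are thus uncertain, as described below. The coverage over the listed transcripts corresponded to 35151493 reads of 50 nt in EtOH and 36203604 in R5020. This is not the number of mapped reads. The study reports more uniquely mapped reads for both libraries, with the larger number in EtOH. The luminal markers *KRT19*, *GATA3*, *EPCAM*, *ESR1* and *PGR* had an FPKM of at least 10.9 in both libraries, and 3 of them were more than 1.5-fold lower in R5020. *GATA3* stood at 253 in EtOH and 126 in R5020, *ESR1* at 17.2 and 10.9 and *PGR* at 23.7 and 15.3. For *PGR* the transcript that held the whole FPKM in R5020 was of low-data status in both libraries. *PGR* was no longer past 1.5-fold with that transcript, its highest by mean FPKM, alone. The part of these 3 markers in the differences of the C/EBP genes was not tested. In bulk RNA, fewer cells that express a gene and less of its RNA per cell cannot be told apart. *KRT8* and *KRT18* were listed at 0 in EtOH with a failed estimate, so a 0 in these files does not always stand for a silent gene. All 6 leukocyte and myeloid markers and all 4 adipocyte and hepatocyte markers were below an FPKM of 1 in both libraries. Among the 5 basal and mesenchymal markers only *COL1A1* passed 1, at 5.12 in EtOH and 3.31 in R5020.

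*CEBPD* had the highest FPKM of the family in both conditions and the largest difference between them. Its FPKM was 10.2 in EtOH and 66.9 in R5020, a 6.56-fold higher level. On the log2(FPKM + 1) scale, on which all log2 fold changes below are given, the difference was 2.60. It held rank 43 by log2 fold change among the 11018 genes that reached an FPKM of 1 in either condition, called the retained genes. Of these, 0.381% stood higher. They were not filtered by the status of the estimate, and *KRT8* and *KRT18*, with a failed estimate in EtOH, are among those higher. *CEBPD* lies on chromosome 8 (hg19, 48649476 to 48650726, minus strand) and is a single exon of 1251 bases. The coverage of this transcript corresponded to 1230 reads in EtOH and 7743 in R5020, and its ratio was 6.30.

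*CEBPG* and *CEBPA*, which lie 71.1 kb apart on chromosome 19, were both higher in R5020. *CEBPG* went from 6.07 in EtOH to 11.9 in R5020, with a log2 fold change of 0.87. *CEBPA* went from 3.41 to 6.41, with a log2 fold change of 0.75. Both levels were thus close to 2 times higher before the pseudocount, 1.96-fold for *CEBPG* and 1.88-fold for *CEBPA*. *CEBPG* (33864575 to 33873592, plus strand) has 2 listed transcripts. NM_001806 held the whole of its FPKM in both libraries, and NM_001252296 was listed at 0 in both. *CEBPA* (33790840 to 33793430, minus strand) is a single exon of 2591 bases.

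*CEBPB* was the only member with a lower level in R5020, and the difference was small. It stood at 3.54 in EtOH and at 2.66 in R5020, and the log2 fold change of −0.31 was short of the 1.5-fold threshold. The gene is a single exon of 2108 bases on chromosome 20 (48807120 to 48809227, plus strand). By FPKM the ratio of *CEBPA* to *CEBPB* was 0.961 in EtOH and 2.41 in R5020. By the midpoints of the deposited intervals, described below, *CEBPA* was above *CEBPB* in EtOH too, at 1.31 and 0.903.

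*CEBPZ* on chromosome 2 (37428775 to 37458740, minus strand) stood at 5.31 in EtOH and at 6.91 in R5020, and its log2 fold change of 0.33 was also below 1.5-fold. It overlaps *LOC100505876* over 3112 bases, and the use of strand in the quantification is not given in the sources used here, so fragments of this overlap may be counted for either gene. *CEBPE* on chromosome 14 (23586515 to 23588820, minus strand) was listed at 0 in both libraries with a status of OK and a coverage of 0. It was thus not among the retained genes, and 6141 gene symbols in all were listed at 0 in both conditions.

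**Figure D1:**
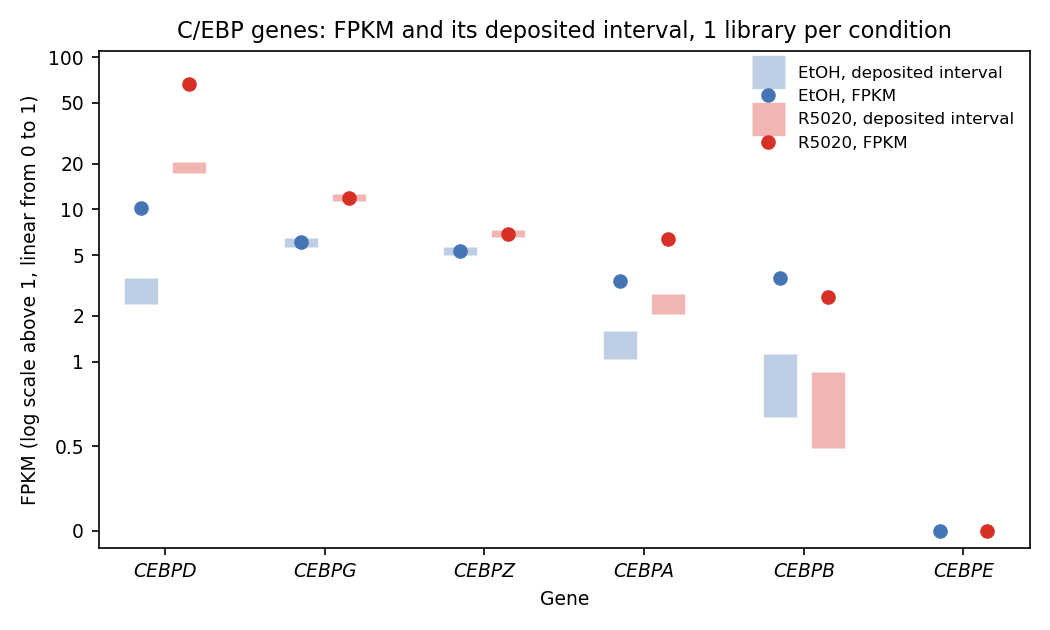
FPKM of the 6 C/EBP genes (y axis, linear from 0 to 1 and logarithmic above) in EtOH (blue) and R5020 (red), 1 library each, with the interval deposited for the same value as a bar (for *CEBPG*, of transcript NM_001806). *CEBPD* goes from 10.2 to 66.9, and the points of *CEBPD*, *CEBPA* and *CEBPB* lie above their own bars.

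By FPKM the order of the levels in EtOH was *CEBPD*, *CEBPG*, *CEBPZ*, *CEBPB*, *CEBPA* and *CEBPE*. In R5020 *CEBPA* stood above *CEBPB*, and the other positions were as in EtOH. Without replicates no pair of neighbours in this order can be said to differ. The closest pair was *CEBPB* and *CEBPA* in EtOH, at 3.54 and 3.41.

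At the threshold of 1.5-fold, 3 of the 5 retained members were higher in R5020 (*CEBPD*, *CEBPG* and *CEBPA*), none was lower and 2 changed less. Over all 11018 retained genes, 7.67% were higher by this threshold and 4.14% were lower. At 2-fold the only member left was *CEBPD*, beside 3.43% of all retained genes higher and 1.31% lower. The median log2 fold change of the 5 retained members was 0.75, and that of all retained genes 0.01. The members were chosen with results of these libraries known, so these counts describe the family and are not evidence about it.

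**Figure D2:**
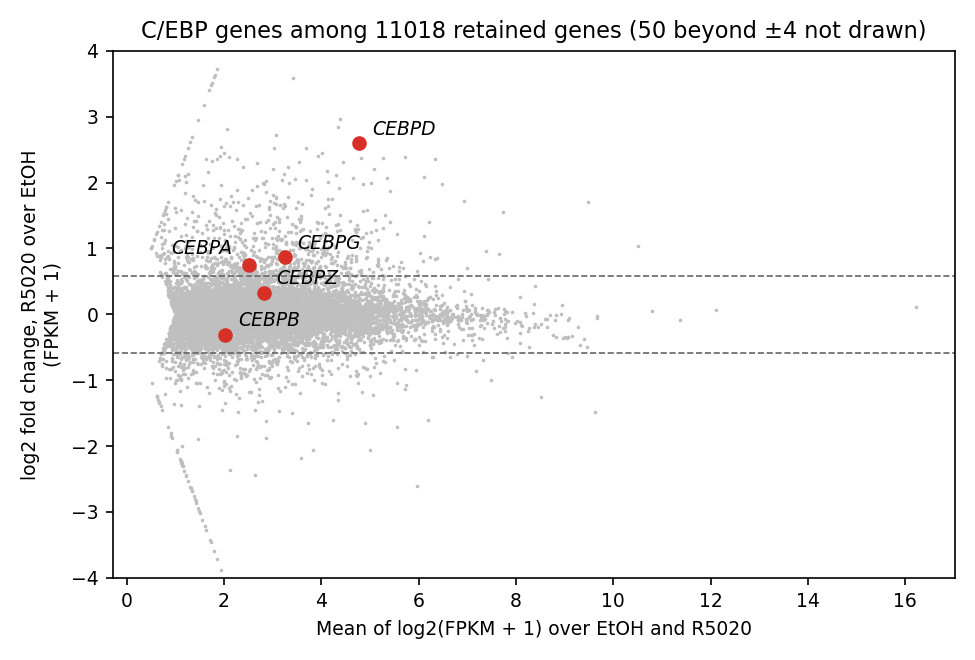
Log2 fold change of R5020 over EtOH (y axis) against the mean of log2(FPKM + 1) over both libraries (x axis) for the retained genes (grey) and the 5 retained C/EBP genes (red), with dashed lines at 1.5-fold and 50 genes beyond the axis not drawn. *CEBPD* at 2.60 stands apart from *CEBPG* at 0.87 and *CEBPA* at 0.75, and *CEBPZ* and *CEBPB* lie between the dashed lines.

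Because FPKM is scaled to length, the make-up of the C/EBP mRNA pool can be described for the 5 bZIP members. Their summed FPKM was 23.2 in EtOH and 87.9 in R5020, a 3.78-fold higher sum. On this scale *CEBPD* accounted for 87.7% of the gain, a figure that depends on its uncertain level relative to the other members. Its share of the pool was 43.9% in EtOH and 76.1% in R5020. The share of *CEBPG* was 26.1% and 13.6%, so it was lower in R5020 although its own level was higher. *CEBPA* held 14.7% and 7.29%, and *CEBPB* 15.3% and 3.03%. *CEBPD* stood at 2.88 times the level of *CEBPB* in EtOH and at 25.1 times in R5020. These are shares of mRNA, and the proteins were not measured.

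The levels of the 3 intronless members carry an inconsistency within the files. For *CEBPD*, the interval that Cufflinks gives with each FPKM was 2.39 to 3.53 in EtOH, below the FPKM of 10.2, and 17.4 to 20.4 in R5020, below 66.9. For *CEBPA* it was 1.04 to 1.58 in EtOH and 2.06 to 2.77 in R5020, and for *CEBPB* 0.676 to 1.13 and 0.490 to 0.941. The FPKM was 2.60 to 3.92 times the midpoint of the interval for these 3 genes. For *CEBPG* (NM_001806) and *CEBPZ* the FPKM lay inside its interval in both libraries, at 0.997 to 1 times the midpoint. Of 373 intronless transcripts with an FPKM above 1 and a status of OK in both libraries, 61.1% lay above their interval in both, against 18.3% of 11098 spliced transcripts. What sets the FPKM and its interval apart was not tested.

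The ratios between the conditions depended less on this than the levels did. With the midpoints in place of the FPKM, R5020 over EtOH was 6.37-fold for *CEBPD*, 1.96-fold for *CEBPG*, 1.85-fold for *CEBPA*, 1.30-fold for *CEBPZ* and 0.793-fold for *CEBPB*. With a pseudocount of 1 added to these lower values, the log2 fold change of *CEBPA* was 0.57, just short of 1.5-fold. The intervals of EtOH and R5020 did not overlap for *CEBPD*, *CEBPG*, *CEBPA* and *CEBPZ*, and they overlapped for *CEBPB*. They describe the estimate within a library and hold no spread between cultures, so overlap does not tell changed from unchanged members. The order of levels in EtOH was affected. By the midpoints *CEBPG*, at 6.07, and *CEBPZ*, at 5.32, were above *CEBPD*, at 2.96, and *CEBPA*, at 1.31, was above *CEBPB*, at 0.903. By the midpoints the sum of the bZIP members was 11.2 in EtOH and 33.9 in R5020, a 3.02-fold higher sum. Within it *CEBPD* stood at 2.96 in EtOH and 18.9 in R5020, so its part of the gain was smaller than by FPKM. *CEBPD* then held 26.3% of the pool in EtOH and 55.6% in R5020, and *CEBPG* 54.0% and 35.2%. The higher share of *CEBPD* in R5020 was thus seen on both scales, and its lead in EtOH only with the FPKM.

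**Figure D3:**
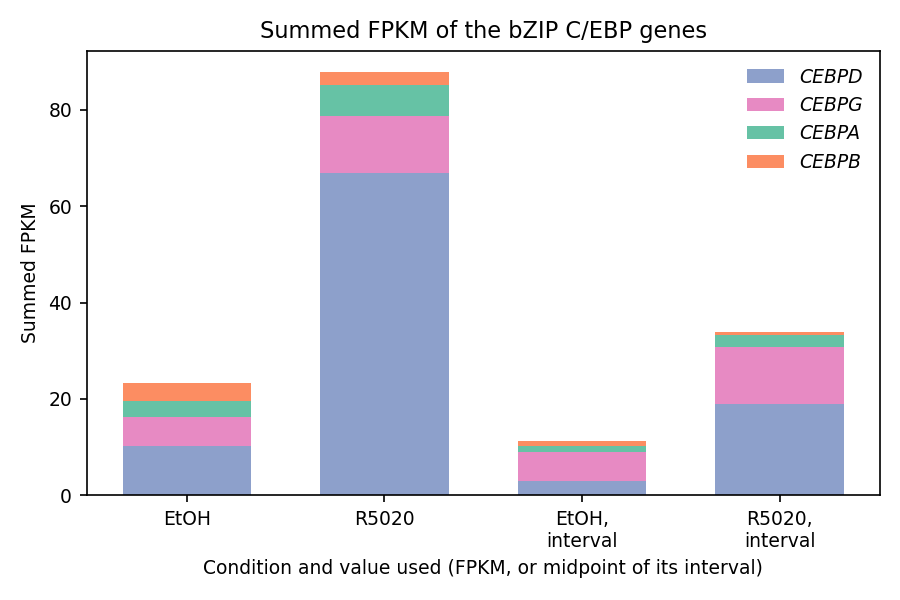
Summed FPKM (y axis, from 0) of *CEBPD*, *CEBPG*, *CEBPA* and *CEBPB* in EtOH and R5020, from the FPKM (left pair of bars) and from the midpoint of its deposited interval (right pair), 1 library per condition. The sum goes from 23.2 to 87.9 by FPKM and from 11.2 to 33.9 by midpoint, and the part of *CEBPD* is larger in R5020 in both pairs.

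The retained genes nearest to each member in the plane of log2(FPKM + 1) in EtOH and in R5020 were listed as a description over 2 libraries. Nearest to *CEBPD* was *FAM107B*, at 11.5 in EtOH and 63.3 in R5020, a distance of 0.17 log2 units. It was followed by *THBS1*, a matricellular inhibitor of angiogenesis, at 11.3 and 50.7 (distance 0.42), and *LCMT1* at 13.7 and 56.7 (0.46). The surroundings of the other members were denser. For *CEBPG* the nearest genes were *BCL2L13*, *CDYL2* and *NEDD4L*, within 0.07 log2 units. For *CEBPA* they were *JARID2*, *WDR43* and *MYCBP2*, within 0.04. For *CEBPB* they were *IGBP1*, *KRI1* and *CEP19*, within 0.02, and for *CEBPZ* they were *TPRA1*, *EPT1* and *FADD*, within 0.01.

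C/EBP proteins work with other bZIP factors. A hand-made list held 10 such partners and relatives and left off other bZIP genes. Of the 10, 4 were retained and none passed 1.5-fold on the log2(FPKM + 1) scale, with a median log2 fold change of −0.08. This holds for the list only and not for bZIP genes in general. Of the genes left off, *ATF3* was past 2-fold higher in R5020 and *ATF7* past 2-fold lower, while *ATF2* changed less than 1.5-fold. Over all retained genes 7.67% were higher and 4.14% lower. *ATF4*, the factor of the amino acid and stress responses, stood at 44.2 in EtOH and 49.1 in R5020 (log2 fold change 0.15). *ATF5* stood at 10.2 and 7.64 (−0.37), *NFIL3* at 3.26 and 5.01 (0.50) and *TEF* at 1.66 and 1.13 (−0.32). With a pseudocount of 0.1 in place of 1 the log2 fold change of *NFIL3* was 0.61, past 1.5-fold. *DDIT3*, which encodes the C/EBP-homologous protein CHOP, was listed at 0 in both libraries. For *ATF5* the transcript with the highest mean FPKM, taken alone, had a log2 fold change of −0.80, past 1.5-fold.

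Of 12 regulators of C/EBP genes or proteins, 11 were retained, with 2 higher, 1 lower and 8 changed less at 1.5-fold, beside 7.67% higher and 4.14% lower over all retained genes. The median log2 fold change of the 11 was 0.14. *RUNX1*, a transcription factor that acts on C/EBP genes in blood cells, was at 4.25 in EtOH and 25.0 in R5020 (2.31). *IL6ST*, the gp130 subunit shared by receptors of the interleukin 6 family, was at 9.56 and 38.7 (1.91). *STAT3*, which carries the gp130 signal and is a known activator of *CEBPD* in mammary cells, stood at 21.2 and 29.6 (0.47), below the threshold. *IL6R*, the ligand-binding subunit, was at 1.32 and 1.15 (−0.11). *PGR*, the receptor of the hormone itself, was at 23.7 and 15.3 (−0.60), and its transcript NM_001202474, which held the whole FPKM in R5020, carried a low-data status in both libraries. That transcript alone did not pass 1.5-fold. *GSK3B* (16.6 and 15.0), *CDK2* (15.9 and 18.9) and *CREB1* (3.24 and 3.67) changed less.

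Most known C/EBP target genes of the list were below an FPKM of 1 in these cells. Of its 24 symbols 23 were found, *IL8* standing for *CXCL8*, and only 4 were retained, so the count below leaves out the target genes of fat, liver, milk and neutrophils. Of the 4, 3 were higher in R5020 and none was lower at 1.5-fold, with a median log2 fold change of 1.51, beside 7.67% higher and 4.14% lower over all retained genes. *MYC* was at 1.53 in EtOH and 8.31 in R5020 (1.88). *GADD45A*, a growth arrest gene, was at 1.28 and 6.09 (1.64). *SOD2*, the mitochondrial superoxide dismutase, was at 8.45 and 23.7 (1.39). *CDKN1A*, the cell cycle inhibitor p21, stood at 10.02 and 9.70 (−0.04). The acute-phase genes *HP*, *SAA1*, *SAA2* and *ORM1*, the adipocyte genes *FABP4*, *ADIPOQ*, *PPARG* and *LEP* and the milk protein genes *CSN2* and *LALBA* were all below an FPKM of 1 in both libraries. Whether C/EBP proteins act on any of these genes in T47D cells was not measured.

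**Figure D4:**
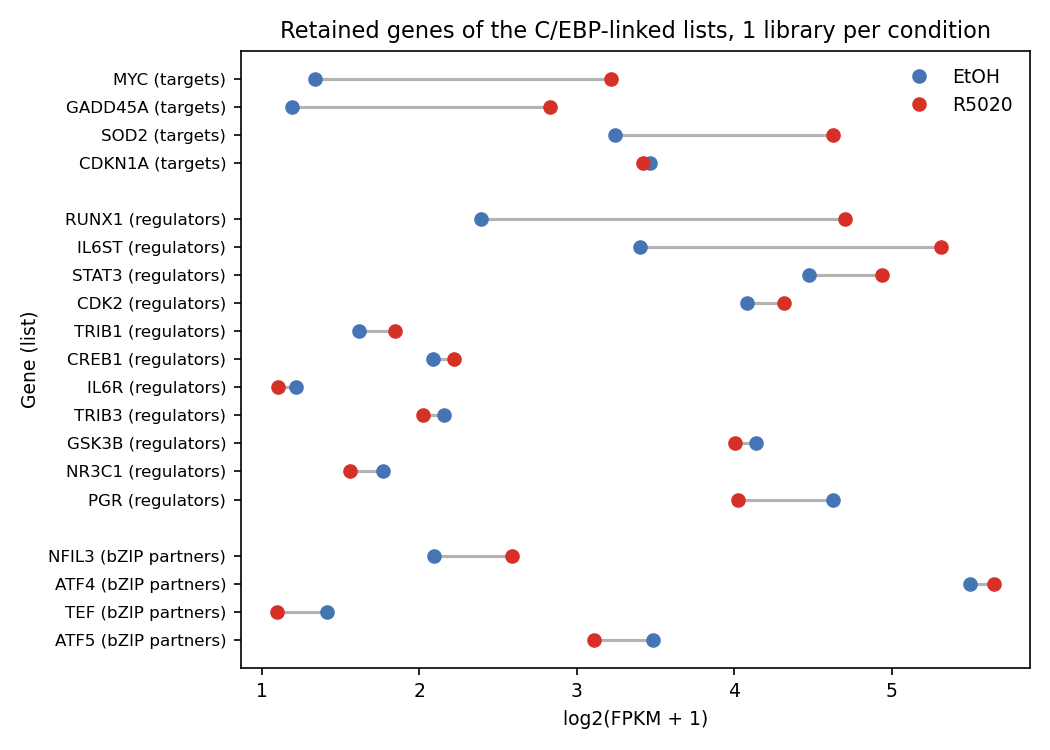
Log2(FPKM + 1) in EtOH (blue) and R5020 (red) (x axis) of the 19 retained genes of the lists of bZIP partners, C/EBP regulators and C/EBP target genes (y axis), 1 library per condition. *RUNX1* and *IL6ST* among the regulators, and *MYC*, *GADD45A* and *SOD2* among the targets, lie to the right in R5020, and the bZIP partners lie close together in both conditions.

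PR binding sites were taken from the 11181 sites called by the authors in the ChIP-seq library, each with a MACS score that increases as the p-value of the site decreases on a log10 scale. The scores ran from 50 to 1965 with a median of 74.5. Within 100 kb of the extent of a gene, *CEBPB* had 6 sites, *CEBPG* 4, *CEBPA* 3 and *CEBPD* 2, while *CEBPE* and *CEBPZ* had none. Of the 5 retained members 4 thus had a site, and so did 64.3% of all retained genes, 57.2% of all gene symbols, 70.8% of the retained genes that were higher in R5020, 75.2% of those lower and 63.3% of those that changed less. At least 6 sites within 100 kb, as for *CEBPB*, were found for 12.4% of the retained genes. The number of sites did not follow the order of the expression differences, as the member with most sites was the one with the lower level. *CEBPA* and *CEBPG* share 2 of their sites, so the members had 13 different sites in all.

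The 13 sites were of moderate score. Their scores ran from 64.6 to 145 with a median of 70.5, and 5 were above the median of all sites. A score of 100 or more was reached by 1 of them, near *CEBPD*, and by 16.3% of all sites. The sites nearest to the limit of 100 kb lay 92.5 kb (inside) and 117 kb (outside) from *CEBPD*.

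**Figure D5:**
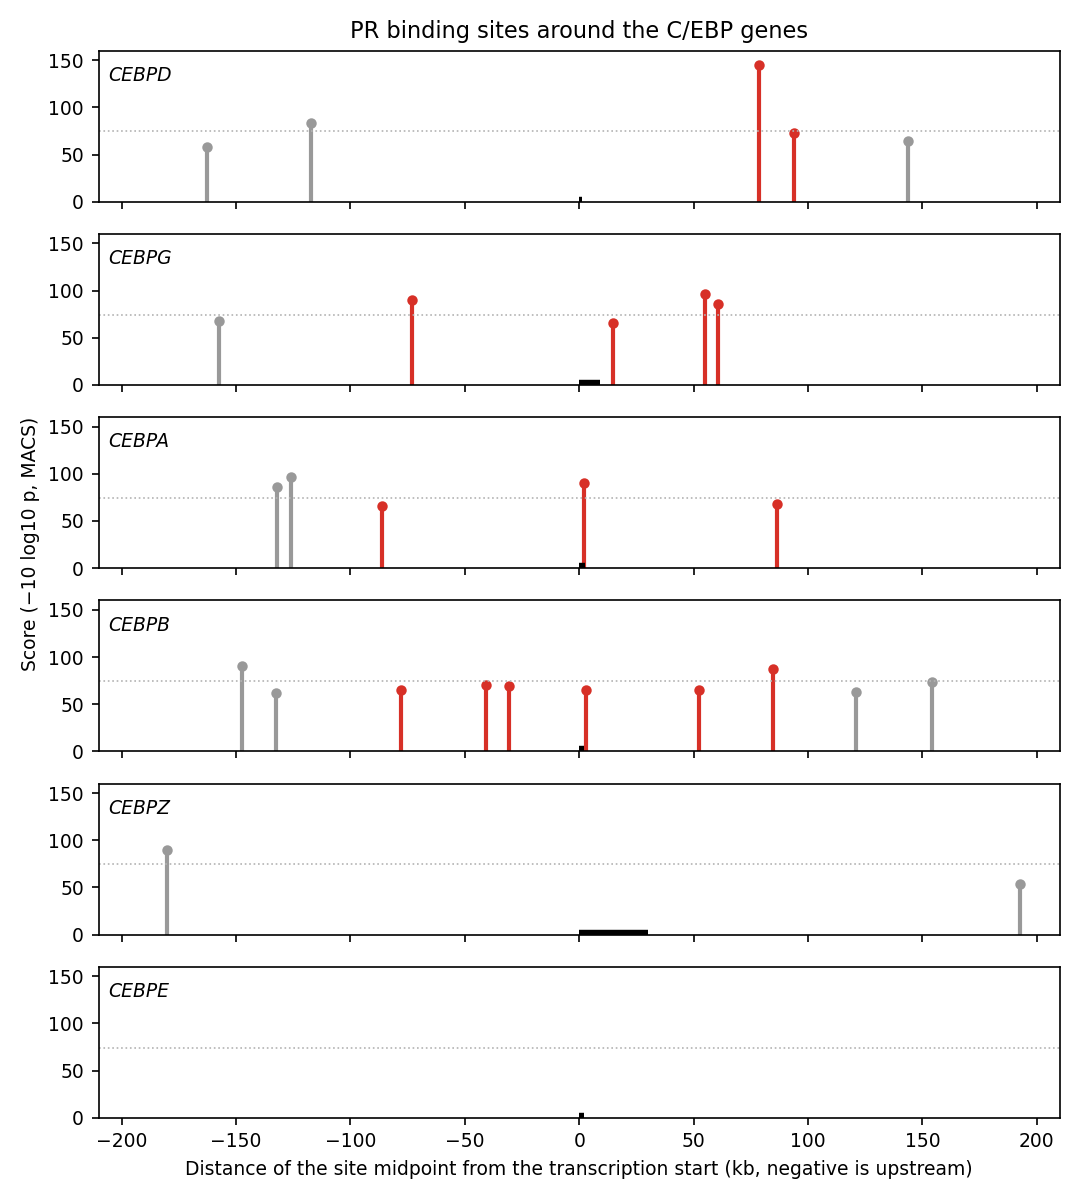
MACS score (y axis, increasing as the p-value decreases) of each PR binding site against the distance of its midpoint from the transcription start of the gene (x axis, in kb along the direction of transcription), in red within 100 kb of the gene and in grey up to 200 kb. The black bar is the gene and the dotted line the median score of all sites, and the highest site is the one of score 145 downstream of *CEBPD*.

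*CEBPA* was the only member with a PR binding site inside it, which 22.5% of the retained genes had. This site lay on chromosome 19 from 33791240 to 33791558, in the 3′ untranslated part of the single exon and 2.03 kb downstream of the transcription start, with a score of 90.5, above that of 76.7% of all sites. The other sites of *CEBPA* were 83.7 kb downstream in the coding sequence of *SLC7A10* (68.02) and 85.9 kb upstream in an intron of *PEPD* (65.97). *CEBPG* counted the site inside *CEBPA*, 73.02 kb upstream of it, among its own. Its nearest site was 5.71 kb downstream (65.97), the same *PEPD* intron site that *CEBPA* counts, and 2 more lay in introns of *PEPD*, 45.5 kb (96.7) and 51.5 kb (86.0) downstream. Within 20 kb *CEBPA*, *CEBPB* and *CEBPG* had a site, as did 39.4% of the retained genes.

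The sites of *CEBPB* lay on both sides of the gene. The nearest, on chromosome 20 from 48809807 to 48810314, began 579 bases downstream of the end of the gene, outside any protein-coding gene, with a score of 64.65. Upstream sites lay at 30.3 kb (69.8), at 40.7 kb in an intron of *PEDS1*, in the files *TMEM189* (70.5), and at 77.5 kb in an intron of *UBE2V1* (64.57). Those downstream lay at 49.9 kb (64.55) and 82.2 kb (86.9), also outside protein-coding genes. The highest of the 6 scores was above that of 73.1% of all sites.

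The central 300 bases of 4 of these sites are shown from the GRCh37 genome, the assembly of hg19, as the sites nearest to *CEBPB* and *CEBPG*, the highest-scoring site near *CEBPG* and the 1 site near *CEBPB* with a match to the core of the steroid receptor palindrome. Capitals mark that match. The motif searched was ACANNNTGT, which reads the same on both strands in its fixed letters.
579 bases downstream of *CEBPB* (chr20:48809911-48810210, plus strand): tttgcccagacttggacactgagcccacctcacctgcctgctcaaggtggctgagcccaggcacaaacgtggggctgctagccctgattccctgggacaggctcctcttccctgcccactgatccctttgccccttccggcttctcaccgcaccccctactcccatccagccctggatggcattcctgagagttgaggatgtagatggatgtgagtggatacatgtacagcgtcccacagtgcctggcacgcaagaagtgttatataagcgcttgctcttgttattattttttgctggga
40.7 kb upstream of *CEBPB* (chr20:48766051-48766350, plus strand): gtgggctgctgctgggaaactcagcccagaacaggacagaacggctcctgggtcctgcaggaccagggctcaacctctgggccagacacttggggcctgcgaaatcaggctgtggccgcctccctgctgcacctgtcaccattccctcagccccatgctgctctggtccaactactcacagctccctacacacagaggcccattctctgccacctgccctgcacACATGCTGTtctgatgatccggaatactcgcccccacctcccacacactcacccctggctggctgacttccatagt
5.71 kb downstream of *CEBPG* (chr19:33879394-33879693, plus strand): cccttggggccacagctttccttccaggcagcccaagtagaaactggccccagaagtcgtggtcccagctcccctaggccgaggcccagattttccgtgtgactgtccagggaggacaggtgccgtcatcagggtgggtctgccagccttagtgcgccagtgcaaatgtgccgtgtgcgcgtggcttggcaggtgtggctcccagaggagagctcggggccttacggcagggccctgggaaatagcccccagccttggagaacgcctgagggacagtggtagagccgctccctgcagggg
45.5 kb downstream of *CEBPG* (chr19:33919186-33919485, plus strand): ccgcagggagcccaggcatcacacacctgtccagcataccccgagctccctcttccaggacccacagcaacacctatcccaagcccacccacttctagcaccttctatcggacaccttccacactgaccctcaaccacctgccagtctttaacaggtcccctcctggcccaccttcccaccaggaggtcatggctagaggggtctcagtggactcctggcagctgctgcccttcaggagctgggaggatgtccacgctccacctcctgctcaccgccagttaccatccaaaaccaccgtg

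ACANNNTGT was found in the central 300 bases of 2 of the 13 sites and in 8.20% of the 11178 sites on the assembly's sequences. The match shown above, ACATGCTGT, begins at base 225 of its window, and the other one was in the site near *CEBPD* with the highest score. The C/EBP palindrome TTGCGCAA (found in 0.0447% of all site centres), the C/EBP-ATF composite TGATGNAAT (0.608%) and the cAMP response element TGACGTCA (0.259%), each searched on both strands, were in none of the 13. The share of G and C in the windows shown was 56.0% to 64.7%, and the median of all site centres was 57.3%.

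For the upstream side, RefSeq promoter sequences were found for 5 of the 6 members, and none for *CEBPD*. The 250 bases before the transcription start are shown for *CEBPA* and *CEBPG*, which were higher in R5020, and for *CEBPB*, which was not. *CEBPG* and *CEBPB* have 2 listed starts each, and the upstream one was used. Sequences are in GRCh38.p14 coordinates and in the direction of transcription. Capitals mark a TATA box (TATAAA) and CCAAT boxes (CCAAT, here as ATTGG on the other strand), which were searched after the sequences had been seen.
*CEBPA* (chr19:33302535-33302784, minus strand): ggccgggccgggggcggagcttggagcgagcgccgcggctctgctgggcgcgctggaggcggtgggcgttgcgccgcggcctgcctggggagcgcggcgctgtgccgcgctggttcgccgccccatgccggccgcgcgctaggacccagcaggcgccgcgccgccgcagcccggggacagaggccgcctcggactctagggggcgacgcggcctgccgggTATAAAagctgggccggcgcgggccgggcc
*CEBPG* (chr19:33373459-33373708, plus strand): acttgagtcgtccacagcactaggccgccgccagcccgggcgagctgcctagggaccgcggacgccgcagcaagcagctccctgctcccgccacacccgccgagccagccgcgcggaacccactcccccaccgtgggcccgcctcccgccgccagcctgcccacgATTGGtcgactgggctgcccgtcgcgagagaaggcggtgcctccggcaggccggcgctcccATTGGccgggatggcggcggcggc
*CEBPB* (chr20:50190333-50190582, plus strand): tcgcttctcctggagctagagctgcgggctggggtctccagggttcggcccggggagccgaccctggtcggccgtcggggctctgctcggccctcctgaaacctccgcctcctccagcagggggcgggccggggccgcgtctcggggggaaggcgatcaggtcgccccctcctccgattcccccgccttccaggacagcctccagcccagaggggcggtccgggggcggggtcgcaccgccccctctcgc

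Counted from the start, *CEBPA* holds TATAAA from base −30, and *CEBPG* holds ATTGG from bases −85 and −24. The sequence before the downstream start of *CEBPB*, not shown, holds a CCAAT box and also a TATA box. The one before the downstream start of *CEBPG*, also not shown, holds neither. TATAAA was in 10.7% and CCAAT in 32.0% of the 35116 promoters of the table, counted on either strand over the same 250 bases. None of the 7 promoter entries, which do not include *CEBPD*, held ACANNNTGT (4.61% of all promoters), TTGCGCAA (0.131%), TGATGNAAT (0.888%) or TGACGTCA (1.65%). In the sequences shown, the share of G and C was 81.2% for *CEBPA*, 76.0% for *CEBPG* and 75.6% for *CEBPB*, against a median of 58.0%.

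*CEBPD*, the member with the largest difference, had its nearest site farther away than the other members with a site within 100 kb. None lay within 50 kb, where 52.7% of the retained genes had one. The nearest was 77.2 kb downstream of the gene on chromosome 8 (48571977 to 48572314), with a score of 145, above that of 95.6% of all sites. The other was 92.5 kb downstream (48556405 to 48556936), with a score of 72.9. Both lie within *KIAA0146*, now named *SPIDR*, the former over an untranslated part of an exon. A site with a score of 100 or more within 100 kb was found for 25.7% of the retained genes. *CEBPZ* had its nearest site at 162 kb and *CEBPE* at 1215 kb.

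Of 20 other genes within 100 kb of a member, 13 were retained, and none passed 1.5-fold in either direction, with log2 fold changes from −0.28 to 0.29. Over all retained genes 7.67% were higher and 4.14% lower, and a count of 0 among 13 is close to these shares. *KIAA0146*, whose extent ends 912 bases from *CEBPD* and holds its sites, was at 7.79 in EtOH and 7.51 in R5020. *PRKDC*, on the other side of *CEBPD*, was at 27.1 and 33.2. *LOC80054*, a long non-coding RNA gene now named *CEBPA-DT* that lies 332 bases from *CEBPA* and is read in the opposite direction, was at 1.84 and 1.34, a difference below the threshold. *PEPD*, which encodes a dipeptidase and whose introns hold 3 of the sites near *CEBPG*, was at 5.14 and 5.19.

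*UBE2V1*, the only retained neighbour of *CEBPB*, had the highest level of all neighbours, 80.3 in EtOH and 75.5 in R5020. Around *CEBPZ*, *C2orf56* lies 33 bases away and was at 3.19 and 2.79, *EIF2AK2* at 4.65 and 5.70, *PRKD3* at 2.72 and 3.39 and the overlapping *LOC100505876* at 4.19 and 4.41. Around *CEBPE*, itself listed at 0, *SLC7A8* was at 23.7 and 28.8, *PSMB5* at 12.9 and 10.6, *ACIN1* at 7.59 and 7.72 and *CDH24* at 1.89 and 2.33.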

How the data were processed

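T47D cells were sequenced as 1 RNA-seq library per condition (R5020 and EtOH) and 1 PR ChIP-seq library, grouped by the sample labels. Doses and times are from the methods of the study. Input DNA enters only as the control of the peak calls.

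The authors aligned the RNA reads to hg19 with TopHat (reads with several positions discarded) and estimated abundances with Cufflinks, and deposited for each RefSeq transcript an FPKM, its interval and a coverage. Only the FPKM entered the main values. The deposited coverage, a signal per base, served to express reads over the listed transcripts and as an alternative. For ChIP-seq the authors aligned reads with Bowtie 1.1.2, per the submitters' processing notes, called peaks with MACS against input and deposited positions with a score. Discarding such reads can lower genes with close copies. The methods name an Ensembl annotation, but the transcripts carry RefSeq identifiers.

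Transcripts were summed by gene symbol, and log2((FPKM in R5020 + 1) / (FPKM in EtOH + 1)) was computed. The filter (an FPKM of 1 reached in either condition) and the 1.5-fold threshold are those of the study, without its p-values. No filter on the status of the estimate was applied, so failed estimates listed at 0 enter the ranks and shares of all retained genes. Here the threshold was applied after adding a pseudocount of 1, which is stricter for genes of low FPKM. A site belonged to a gene when its edge lay within 100 kb of any transcript of the gene. Sites were annotated with protein-coding transcripts of GENCODE lifted to GRCh37, and 11178 of 11181 sites lay on its sequences. Promoter sequences were those of RefSeq on GRCh38.p14. Named genes were the members, every list gene past 1.5-fold, up to 4 others per list by FPKM, the retained neighbours and the 3 retained genes nearest to each member. *DDIT3*, *IL6R*, *ATF2*, *ATF3*, *ATF7* and genes of the target list below an FPKM of 1 were named in addition, after their values were seen. The members and lists were chosen with earlier results of these data known. The summing, calling and site counting were tested on simulated data. Python 3.11.15, pandas 2.3.3, numpy 2.4.6 and pysam 0.24.0 were used.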

Additional observations from a re-analysis of the deposited data

How the results depend on the processing

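With 1 library per condition there was no replicate to leave out, and the intervals describe the estimate within a library only. No paired analysis was possible because each group holds 1 sample.

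Of 115 alternative values over 20 results, 93 kept their direction and their side of the threshold, or, for counts, stayed within 1.5 times. The log2 fold changes of *CEBPD*, *CEBPG*, *CEBPB* and *CEBPZ* kept both under all 6 alternatives tried, of which the ratio without pseudocount, the interval midpoint and the coverage were chosen after seeing the data. That of *CEBPA* was 0.57 with the midpoint of the interval, and 2 members were then higher. The setting of the transcript with the highest mean FPKM could not move the values of the members. Each member had at most 1 transcript above an FPKM of 0, so this setting repeated the main values, which count among the 93. At 2-fold, 1 member was higher, and no regulator was lower. With a pseudocount of 0.1, 1 bZIP partner (*NFIL3*) was higher. With the transcript of highest mean FPKM, 1 bZIP partner (*ATF5*) was lower, and 0 regulators were lower.

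The numbers of sites moved with the distance by construction. Within 20 kb *CEBPA*, *CEBPB* and *CEBPG* had 1 site each and *CEBPD* 0. Within 50 kb *CEBPA* had 1, *CEBPG* 2 and *CEBPD* 0. Within 200 kb *CEBPA* had 5, *CEBPB* 10, *CEBPD* 5 and *CEBPZ* 2. With a score of at least 100, *CEBPD* had 1 site, *CEBPA*, *CEBPB* and *CEBPG* had 0, and 1 member had a site.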
